A study of Homo sapiens and Mus musculus with 12 samples.

Results

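In the human melanoma line A375, the polysome share of each gene's RNA was compared between a state labelled S and a state labelled P. The series profiled parental cells and drug-tolerant persister cells, which survive a drug without stable resistance, but which letter marks which cells is not stated in the labels. The comparison used 4 of the 12 libraries: S polysome, S input, P polysome and P input, each 1 library of A375 cells. Input is RNA taken before a sucrose gradient, and polysome RNA comes from the densest fractions at its bottom. No drug, dose or treatment time is named in the labels, and Yumm1.7, a mouse melanoma line in the same 2 states, serves below as a separate set of libraries.

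The value for a gene was the log2 ratio of polysome to input TPM in S minus the same ratio in P, with 1 TPM added to each value and the median gene set to 0. TPM is read density scaled to 1000000 per library. Of 16782 genes in the A375 table, 9132 reached a mean of 5 TPM over its 6 libraries and entered the comparison. A positive difference means a higher polysome-to-input ratio in S. Each state gave 1 library per fraction, so replicate error is unknown and no test was made, and TPM does not show the depth of the libraries. TPM is relative within a library and says nothing about how many ribosomes or how much RNA a fraction held.

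Cytosolic mRNAs are read by several ribosomes at once, and a heavier polysome carries more of them. How many ribosomes an mRNA holds depends on how often translation starts, how fast ribosomes move and how long the coding sequence is. RNAs that cytosolic ribosomes do not read, such as mitochondrial and nuclear RNAs, are expected to stay out of the polysome fraction unless they sediment there in another particle. Translation is also controlled by elements within mRNAs: a pyrimidine tract at the 5-prime end ties mRNAs of the translation machinery to mTORC1, and iron-responsive elements let iron regulatory proteins block ferritin mRNAs.

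Several groups of RNAs had a higher polysome-to-input ratio in S. RNAs of the mitochondrial genome, the nuclear RNA MALAT1 and both ferritin mRNAs were low in P polysomes relative to P input and less low, or high, in S. Among cytosolic mRNAs, this ratio was higher in S for several long coiled-coil proteins of the Golgi and centrosome and several arginine-serine-rich splicing factors. It was also higher for nucleolin and the initiation factor EIF3A. Among mRNAs of translation factors, the ratio of EEF1A1, EIF3F and EIF3E was at least 2-fold lower in S. Integrins with cadherins, and membrane transporters, lay mostly below the median gene, with 2 of 12 and 5 of 123 at least 2-fold lower. Of all genes, 2.0% were at least 2-fold lower.

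Of 9132 genes, 484 (5.30%) were at least 2-fold higher in S and 183 (2.0%) at least 2-fold lower. The difference lay between -0.79 and 1.03 for the genes from the 5th to the 95th percentile. Before centring, the median gene differed by -0.03, with a log2 polysome-to-input ratio of 0.09 in S and 0.20 in P. All within-state ratios below are given relative to these medians. Genes at least 2-fold higher had a median ratio of 1.33 in S and -0.28 in P, so the typical member stood above the median gene in S alone. Of the 484, 213 were also at least 2-fold higher in S in the polysome libraries relative to the median gene, and 188 were at least 2-fold lower in S in the input libraries. Genes at least 2-fold lower had a median ratio of -1.12 in S and 0.03 in P, and 65 of the 183 were at least 2-fold lower in the polysome libraries while 68 were at least 2-fold higher in the input libraries. At the edge of the rule, IKZF5, a zinc finger transcription factor gene with a mean of 5.00 TPM, was just inside with a difference of -0.75, and PAQR7, a membrane progestin receptor gene, was just outside with 0.05.

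The libraries of a state were close to each other across genes (Pearson r of log2 values 0.90 between S polysome and S input and 0.92 between P polysome and P input), and the states differed more (0.78 between the polysome libraries and 0.75 between the input libraries). Melanoma identity was checked on MITF, SOX10, PMEL and DCT, which were present in every library. The 17 melanocyte markers in the table summed to 1469 TPM in S polysomes and 1549.9 TPM in S input, against 1271 and 1086 TPM in P. MLANA and TYR are not analysed here. Fibroblast markers summed to at most 17.9 TPM, leukocyte markers to at most 3.36 TPM and endothelial markers to at most 0.68 TPM in any of the 4 libraries, with 3, 1 and 1 members in the table. The 3 keratinocyte markers in the table summed to 70.5 TPM in S polysomes and 75.3 TPM in S input, against 37.7 and 49.0 TPM in P.

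Stretches of coding sequence from purine-rich genes that were high in S and from purine-poor genes that were low are shown first, to let the 2 ends of the purine scale be read directly. Purines (A and G) make up 61.3% of the coding sequence of AKAP9 and 62.9% of that of GOLGA4, against 44.9% in RBM14. The sequences below are the purine-richest 60 bases within 1 exon of each coding sequence, 5′ to 3′ on the coding strand, from GENCODE 29 (GRCh38), with runs of at least 6 purines in capitals. The top 6 are the coding genes with the highest difference among the richest of 5 equal groups by purine content, and the other 4 are those with the lowest difference in the poorest group. They were chosen by their values among genes that reached 10 TPM on average in the 4 libraries and were listed at 0 in none. Since purine content chose them, the contrast between the sets is no result.
AKAP9 chr7:92080065-92080124, plus strand: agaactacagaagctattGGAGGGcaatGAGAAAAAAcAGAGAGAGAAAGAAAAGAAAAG
GOLGA4 chr3:37324734-37324793, plus strand: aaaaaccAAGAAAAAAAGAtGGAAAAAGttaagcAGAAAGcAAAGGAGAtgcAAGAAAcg
CENPE chr4:103145113-103145172, minus strand: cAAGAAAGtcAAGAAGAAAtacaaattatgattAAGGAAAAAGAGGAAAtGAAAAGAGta
C2orf74 chr2:61163140-61163199, plus strand: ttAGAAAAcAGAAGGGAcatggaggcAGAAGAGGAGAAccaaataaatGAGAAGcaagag
GOLGB1 chr3:121697361-121697420, minus strand: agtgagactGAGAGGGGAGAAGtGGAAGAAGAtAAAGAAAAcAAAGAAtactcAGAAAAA
TPR chr1:186346160-186346219, minus strand: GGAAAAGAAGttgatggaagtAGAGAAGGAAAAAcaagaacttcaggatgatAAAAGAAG
RBM14 chr11:66624233-66624292, plus strand: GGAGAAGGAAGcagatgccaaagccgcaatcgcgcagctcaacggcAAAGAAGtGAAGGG
FAM8A1 chr6:17604929-17604988, plus strand: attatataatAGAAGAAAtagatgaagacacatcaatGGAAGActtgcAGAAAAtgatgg
SELENON chr1:25811799-25811858, plus strand: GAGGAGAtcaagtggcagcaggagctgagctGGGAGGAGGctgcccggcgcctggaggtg
ITGA5 chr12:54403720-54403779, minus strand: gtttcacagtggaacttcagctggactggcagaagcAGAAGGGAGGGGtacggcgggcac
The windows of the 6 high genes hold 48 to 50 purines of 60, and those of the 4 low genes 39 to 43, each being the richest stretch of its own gene, and this gap follows from the choice. Differences lay between 3.10 and 4.29 in the set of 6 and between -1.83 and -1.41 in the set of 4. Codons for lysine (AAA, AAG) and glutamate (GAA, GAG) are made of purines alone, and the long coiled coils of AKAP9, GOLGA4 and GOLGB1 are rich in these residues. They make up 24.0% of codons in AKAP9, 29.3% in GOLGA4 and 5.23% in RBM14. Not every extreme gene has such a sequence. Among the 30 highest coding genes, taken whatever their purine content, 25 were above the median purine content of all coding genes and 5 below, with COQ8A (difference 3.54, 50.9% purines) and PSEN2 (3.04, 48.3%) among the 5. Among the 30 lowest, 28 had a matching coding sequence, with 19 below that median and 9 above, and BOLA2 (-4.13, 55.5%), MRNIP (-2.0, 55.7%) and GAGE12G (-1.58, 61.8%) were among the 9.

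A second set shows the starts of mRNAs of the translation machinery, because a run of C and T at the first base defines the 5-prime terminal oligopyrimidine (TOP) class. Each sequence runs from 8 bases before to 20 bases after the annotated start in RefSeq (GRCh38.p14), with the pyrimidine run at or near the start in capitals.
EEF1A1 chr6:73521013-73521040, minus strand: tgaacgttCTTTTTCgcaacgggtttgc
EIF3F chr11:7987329-7987356, plus strand: tccgCCTCCTTCTTTCTCgacaagatgg
EIF2S3 chrX:24054948-24054975, plus strand: tttCCTTCCTCTTTTggcaacatggcgg
RACK1 chr5:181243887-181243914, minus strand: ttttCTCTCTCTCTTTCactgcaaggcg
EEF2 chr19:3985444-3985471, minus strand: tcagcgttCTCTTCCgccgtcgtcgccg
EIF4B chr12:53006448-53006475, plus strand: atccgggtCTTTTgcgttctctttccct
TPT1 chr13:45341164-45341191, minus strand: gagtcggCCTTTTCCgcccgctcccccc
EIF3K chr19:38619180-38619207, plus strand: tccaccaCCTCTTCCTgttcccgtcctt
NPM1 chr5:171387841-171387868, plus strand: cctgcgtCCTTTCCCTggtgtgattccg
NAP1L1 chr12:76084666-76084693, minus strand: tcttgggtCTTTTTTagcgccatctgct
These 10 mRNAs share the run and span differences from -1.77 (EEF1A1) to 0.33 (NAP1L1), so sequences of the same class stand on both sides of the median gene. The ferritin light chain mRNA carries the 5 bases CAGTG, which form the loop of an iron-responsive element, 39 to 43 bases from its start.
FTL chr19:48965331-48965358, plus strand: ctgtctcttgcttcaaCAGTGtttggac
CAGTG lies within 50 bases after the start on the gene's own strand in 6.43% of 27305 RefSeq promoter windows, so the match alone does not set FTL apart.

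Mitochondrial RNAs had some of the highest differences of the ratio between S and P. Mitochondria translate their own 13 mRNAs on their own ribosomes, so these RNAs report on particles other than cytosolic polysomes. All 13 had a positive difference (median 1.15, from 0.64 to 2.25) and 8 were at least 2-fold higher in S, where 5.30% of all genes were. Their median ratio was -1.23 in S and -2.47 in P, and 12 of the 13 stood below the median gene in S and all 13 in P. MT-ND5 was the one above it in S (0.18). MT-ND5, a subunit of respiratory complex I, had 2468 TPM in S polysomes and 2042 TPM in S input, against 640.0 and 2104 TPM in P. The input libraries were close for MT-ND5 and the P polysome library was the low one. MT-ND1, another complex I subunit, had 7319 TPM in S polysomes and 8613 TPM in S input, against 739.9 and 2637 TPM in P. Here S was higher in both fractions, and the difference was 1.63 against 2.02 for MT-ND5. MT-ND3 had the smallest difference (0.64), with 988 TPM in S polysomes and 3650 TPM in S input, against 441 and 2485 TPM in P. Mitochondrial mRNAs together made up 5.70% of TPM in S polysomes and 12.2% in S input, against 1.87% and 9.30% in P.

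The ribosomal RNAs of the mitochondrion went further. MT-RNR2, the large-subunit rRNA, had 11438 TPM in S polysomes and 22163 TPM in S input, against 499.7 and 18127 TPM in P, a difference of 4.25. MT-RNR1, the small-subunit rRNA, had 533 TPM in S polysomes and 4954 TPM in S input, against 65.1 and 9298 TPM in P, a difference of 3.95. Input levels of MT-RNR2 were within 2-fold of each other, and its polysome levels were more than 20-fold apart. Of 22 mitochondrial tRNAs, a list added after values were seen, 21 were past 2-fold upward in S and none downward (median 2.68). Their median ratio was 0.58 in S and -2.39 in P. MT-TS2, a serine tRNA, had 295 TPM in S polysomes and 33.9 TPM in S input, against 154 and 526 TPM in P, so its input library in S was the lowest of the 4. Per the labels, libraries were made from RNA selected with poly-T beads, and short RNAs without a stable poly(A) tail are measured poorly by that route. The part this plays in these values was not tested.

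Nuclear and small noncoding RNAs shared the upper end. MALAT1, a nuclear RNA of splicing speckles (chromosome 11, 65497738 to 65506516), had 341 TPM in S polysomes and 31.7 TPM in S input, against 11.1 and 219 TPM in P. The order of the fractions was thus opposite in the 2 states, with a difference of 7.60. TALAM1, transcribed from the opposite strand of the same locus, had 64.5 TPM in S polysomes and was listed at 0 in S input, and was listed at 0 in P polysomes with 16.4 TPM in P input. The strand setting was not given in the sources used here, so reads of MALAT1 and TALAM1 cannot be told apart. NEAT1, the RNA scaffold of paraspeckles, had 29.5 TPM in S polysomes and 57.9 TPM in S input, against 77.1 and 257 TPM in P. NEAT1 was thus lower in polysomes than in input in both states, with a difference of 0.81, unlike MALAT1. In the list of nuclear RNAs (7 measured, MALAT1 included, median 0.19), MALAT1 alone was past 2-fold. Small nucleolar and Cajal body RNAs, a list added after values were seen, had 13 of 30 members at least 2-fold higher and 1 lower (median 0.89), at median ratios of -0.48 in S and -1.67 in P. RN7SL2, the RNA of the signal recognition particle, had 5.96 TPM in S polysomes and 509 TPM in S input, and was listed at 0 in P polysomes with 1087 TPM in P input. The limit of poly-T selection given above for short RNAs applies to these values too. Spliced host RNAs of snoRNAs, which code for little, were below the median gene in both states in all 21 members (median ratio -1.92 in S and -2.11 in P). Their median difference was 0.03, with 1 at least 2-fold higher and 2 lower. Within them, GAS5 had a difference of -1.04 and SNHG6 of 0.97.

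Ferritin stores iron in a shell of heavy (FTH1) and light (FTL) chains, and iron regulatory proteins bind the element in the 5-prime UTR of both mRNAs and block their translation when iron is low. FTH1 (chromosome 11, 61964285 to 61967634) had 3072 TPM in S polysomes and 3970 TPM in S input, against 632 and 2688 TPM in P. FTL had 2236 TPM in S polysomes and 5853 TPM in S input, against 337 and 2246 TPM in P. Both were low in P polysomes relative to P input (ratios -2.29 for FTH1 and -2.93 for FTL) and less so in S (-0.46 and -1.48), giving differences of 1.75 and 1.37. Of the mRNAs that carry the element in the 3-prime UTR, TFRC, the transferrin receptor, had a difference of -0.60 and SLC11A2, an iron transporter, had -0.55, and binding there protects the TFRC mRNA from decay. Over these 4 mRNAs the median was 0.41 with 2 at least 2-fold higher. With genes of lower level included (down to a mean of 1 TPM), the list median was -0.42, so the statement holds for the ferritin pair and not for the list. Ferritin pseudogenes are numerous, and how reads were divided among the copies is not given.

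**Figure D1:**
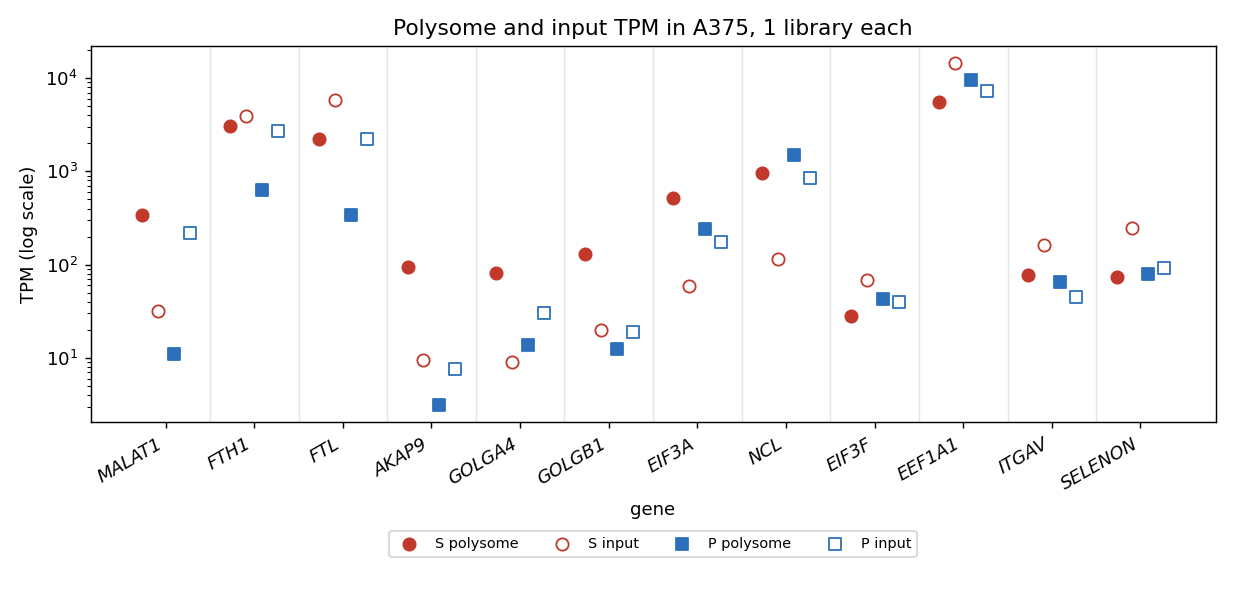
TPM (log axis) of 12 genes in the 4 A375 libraries, with S in red circles, P in blue squares, filled symbols for polysome and open symbols for input libraries, 1 library each. MALAT1, AKAP9, GOLGA4 and EIF3A have a filled red circle far above the open red one, FTH1 and FTL have a low filled blue square, and EEF1A1, EIF3F and ITGAV have a filled red circle below the open one.

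The mRNAs that make the translation machinery did not move as a block. Of 18 TOP mRNAs other than those of ribosomal proteins, 11 were below the median gene and 7 above (median -0.30), and 3 were at least 2-fold lower in S, where 2.0% of all genes were. EEF1A1, the elongation factor that brings aminoacyl-tRNA to the ribosome (chromosome 6, 73515750 to 73521032), had 5507 TPM in S polysomes and 14543 TPM in S input, against 9679 and 7342 TPM in P. It was higher in input and lower in polysomes in S, with a difference of -1.77. EEF1G, a subunit of its exchange factor, had a difference of -0.77 and EEF2, the translocase, -0.40, while the nucleolar chaperone NPM1 and the histone chaperone NAP1L1 were at 0.33. The 6 ribosomal protein genes analysed here, of 79 listed, had a median of -0.40, from -0.57 for RPLP0 to 0.00 for FAU. None of the 6 was past 2-fold. They were below the median gene in both states (median ratio -1.34 in S and -0.91 in P). EEF1A1 and RPLP0 have many processed pseudogenes, so the division of their reads is uncertain.

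A pyrimidine run at the start made little difference across genes. Of 7017 coding genes measured with a RefSeq promoter, 1585 (22.6%) had a run of at least 5 C or T that opens with C within 5 bases of the start, and 21.1% of all 27305 RefSeq windows had one. The median difference was -0.05 with the run and 0.00 without it. Of genes with the run, 2.52% were at least 2-fold lower and 3.79% at least 2-fold higher, against 1.80% and 5.04% without it.

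Subunits of the initiation factor eIF3, which binds the small ribosomal subunit and recruits mRNA to it, went opposite ways. EIF3A, its largest subunit (chromosome 10, 119033670 to 119080817), had 522 TPM in S polysomes and 59.1 TPM in S input, against 244 and 177 TPM in P. It was the highest initiation factor (2.69), being lower in input and higher in polysomes in S. EIF3F had 27.9 TPM in S polysomes and 68.0 TPM in S input, against 43.0 and 39.3 TPM in P, a difference of -1.35. EIF3E had 284 TPM in S polysomes and 697 TPM in S input, against 456 and 439.5 TPM in P, a difference of -1.31. The 2 low subunits were higher in S input than in P input. The other 10 subunits lay between -0.25 (EIF3H) and 0.60 (EIF3C). EIF5B, which joins the large subunit to a started ribosome, had 629 TPM in S polysomes and 141 TPM in S input, against 206 and 182 TPM in P, a difference of 2.0. A list of 33 initiation factors, which leaves out the eIF3 subunits counted among the TOP mRNAs, had a median of 0.21. In it, 2 (6.06%) were past 2-fold upward and none downward. With the left-out eIF3 subunits, EIF3F and EIF3E included, the median of 38 was 0.16, with 2 (5.26%) past 2-fold upward and 2 (5.26%) downward. Of all genes, 5.30% were past 2-fold upward and 2.0% downward, so the upward shares are near that of all genes. The cap-binding protein EIF4E was at 0.10, its inhibitor EIF4EBP1 at 0.51, LARP1, which binds TOP mRNAs, at -0.48, and MTOR at -0.09.

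The polysome-to-input ratio of ribosome biogenesis factors was slightly higher in S. Relative to the median gene their mRNAs were lower in S in both fractions, with medians of -1.19 in input and -0.84 in polysomes. Of 81, 64 had a difference above the median gene (median 0.31). Past 2-fold upward were 10 (12.3%) and none downward, where 5.30% and 2.0% of all genes were. Nucleolin (NCL), an RNA-binding protein of the nucleolus with acidic stretches, had 955 TPM in S polysomes and 116 TPM in S input, against 1512 and 851 TPM in P, the highest of the list at 2.24. NCL was lower in S in both fractions, by less in polysomes. NOP58 (1.73), a core protein of box C/D snoRNPs, and the nucleolar protein LYAR (1.52) followed. RNA polymerase I components had a median of 0.04 with none of 13 past 2-fold. Cytosolic tRNA synthetases had a median of 0.35 with 1 of 19 (5.26%) past 2-fold upward, near the share of all genes.

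Several mRNAs of coiled-coil proteins of the Golgi and the centrosome stood near the top of the cytosolic mRNAs. Golgins are long rods that tether vesicles to Golgi membranes, and centrosomal scaffolds such as AKAP9 and PCM1 organise microtubules. AKAP9 (chromosome 7, 91940862 to 92110673) had 94.8 TPM in S polysomes and 9.48 TPM in S input, against 3.10 and 7.58 TPM in P, a difference of 4.29. The input libraries were close and the S polysome library stood alone. GOLGA4 (chromosome 3, 37243271 to 37366879) had 81.3 TPM in S polysomes and 8.93 TPM in S input, against 13.7 and 30.2 TPM in P, a difference of 4.17. GOLGB1, or giantin, had 129 TPM in S polysomes and 20.1 TPM in S input, against 12.4 and 19.2 TPM in P, a difference of 3.24. In all 3 genes polysome exceeded input in S and input exceeded polysome in P. With 5 TPM in place of 1 TPM added to each value, AKAP9 was at 3.45 and GOLGA4 at 3.58.

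Both lists of such proteins were added after these values were seen. Of 13 golgins, 5 were higher by 2-fold or more and none lower by as much (median 0.63), with median ratios of 0.93 in S and -0.24 in P. The members past 2-fold were GOLGA4, GOLGB1, TRIP11 (2.99), GCC2 (2.06) and TMF1 (1.26), and GOLGA3 was the only member below the median gene (-0.28). Of 16 centrosomal coiled-coil proteins, 12 were higher by 2-fold or more and none lower by as much (median 1.5), with median ratios of 1.35 in S and -0.35 in P. CEP290, a ciliary gatekeeper, had 17.5 TPM in S polysomes and 2.73 TPM in S input, against 2.88 and 5.78 TPM in P, a difference of 3.15. PCM1 was at 1.79, NIN at 1.59 and CEP120 at -0.42. The list was picked with values in view and does not stand for centrosomal proteins at large. Of all 24 measured genes named CEP with a number, 5 were at least 2-fold higher and 1 lower (median 0.23). The 15 of them outside the list had a median of 0.00, with none higher and CEP20 lower (-1.36). Long coiled coils outside these lists were among the 30 highest coding genes as well: KTN1 (2.64), a kinesin-binding protein of the endoplasmic reticulum, TPR (3.10), a filament protein of the nuclear pore basket, and RAD50 (2.54), a DNA repair protein. Nuclear pore proteins, a list added after values were seen that includes TPR, had a median of 0.11 over 28 members. Of these, 3 (10.7%) were at least 2-fold higher and 1 lower.

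Splicing proteins were the other large group. Of 29 arginine-serine-rich splicing proteins outside the classical SR family, a list added after values were seen, 10 were higher by 2-fold or more and none lower by as much (median 0.51). ZC3H13, a subunit of the m6A writer complex, had 138 TPM in S polysomes and 16.5 TPM in S input, against 40.7 and 40.3 TPM in P, a difference of 3.0. PPIG, a nuclear cyclophilin, had 106 TPM in S polysomes and 20.2 TPM in S input, against 30.9 and 38 TPM in P, a difference of 2.66. In both genes the S input library was the lowest and the S polysome library the highest of the 4. RBM25 (2.50), NSRP1 (2.49) and LUC7L3 (1.40) followed. Of 47 hnRNP, SR and snRNP proteins, 41 were above the median gene (median 0.43), 8 higher by 2-fold or more and none lower by as much. SRSF11 had a difference of 1.27, SRSF5 of 1.26 and HNRNPA2B1 of 1.25. The last had 1399.5 TPM in S polysomes and 272 TPM in S input, against 2795 and 1265 TPM in P.

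Most mRNAs of chaperones, the proteasome and the respiratory chain lay above the median gene, but only among heat shock proteins was the share past 2-fold well over the 5.30% of all genes. Of 22 cytosolic heat shock proteins, 19 were above the median gene (median 0.47) and 6 (27.3%) were at least 2-fold higher. HSP90AB1 had 2072 TPM in S polysomes and 487 TPM in S input, against 4203 and 2427 TPM in P, a difference of 1.33, and HSPA8, HSP90AA1, HSPA4, DNAJA1 and HSPH1 lay between 1.01 and 1.28. All 6 had lower TPM in S input than in P input. Chaperonin and prefoldin subunits had a median of 0.56 with none of 15 higher and 1 lower, PFDN6 (-1.26). Of 35 proteasome subunits 31 were above the median gene (median 0.37) and 2 (5.71%) past 2-fold, and of 37 complex I subunits 31 (median 0.37) and 2 (5.41%). Nuclear-encoded subunits of complexes II to V had 36 of 40 above the median gene (median 0.25), none past 2-fold. Complex I subunits were below the median gene in P (median ratio -0.46) and at it in S (0.01).

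Replication-dependent histone mRNAs end in a stem-loop in place of a poly(A) tail. The libraries were made from RNA selected with poly-T beads, and the part this plays in the histone values was not tested. Of 12 measured, 6 were higher by 2-fold or more and none lower by as much (median 0.87). H2BC5 had 73.1 TPM in S polysomes and 57.5 TPM in S input, against 1.26 and 6.47 TPM in P, a difference of 2.10. H1-2 had 748 TPM in S polysomes and 360 TPM in S input, against 31.2 and 20.7 TPM in P, a difference of 0.51. The histones are multicopy genes, and H4C14 and H4C15 had nearly the same values (1.64 each), so single members are uncertain.

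**Figure D2:**
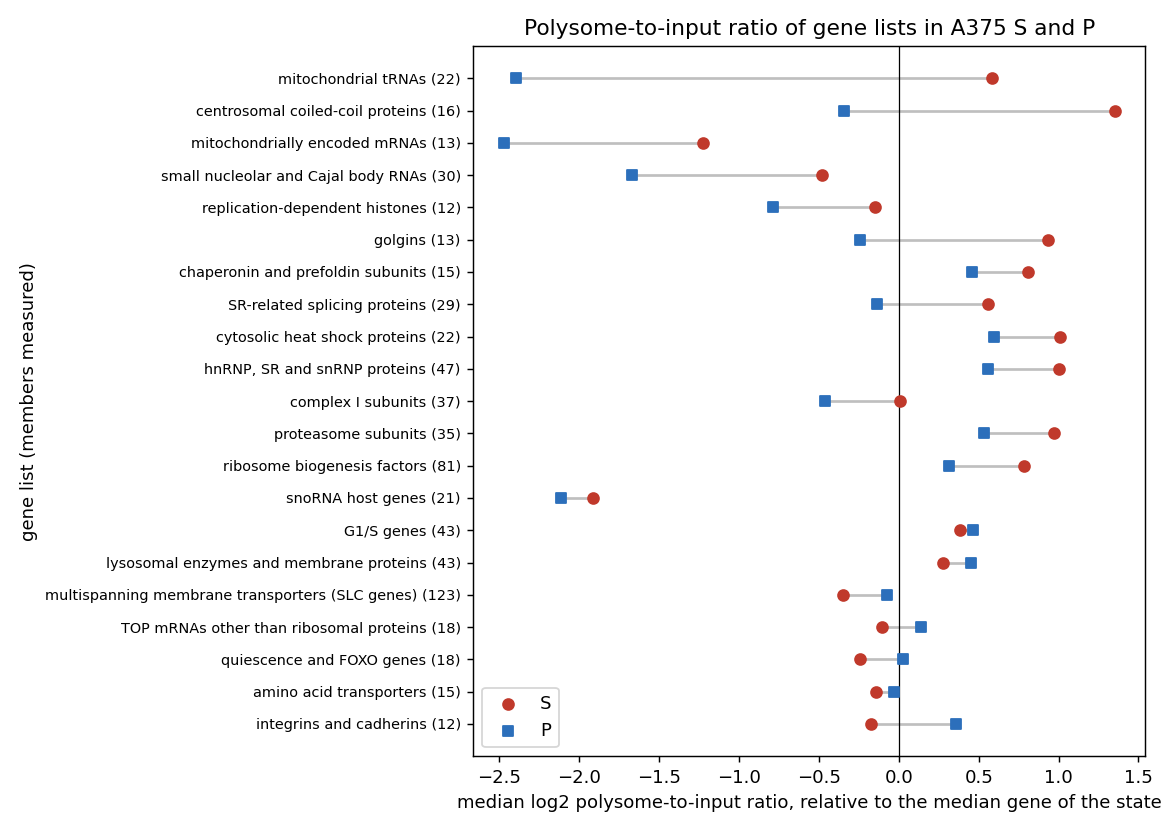
Median log2 polysome-to-input ratio of each list in S (red circles) and P (blue squares), relative to the median gene of the state, with the number of members measured in brackets. Mitochondrial tRNAs (0.58 in S, -2.39 in P) and centrosomal coiled-coil proteins (1.35 in S, -0.35 in P) have the widest gaps, and integrins and cadherins (-0.17 in S, 0.36 in P) stand at the opposite end.

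Most measured mRNAs of integrins and cadherins lay below the median gene. Integrins anchor cells to matrix and cadherins anchor cells to each other. Of 12 measured, 11 were below the median gene (median -0.51). At least 2-fold lower were 2 (16.7%) and none higher, where 2.0% of all genes were lower and 5.30% higher. ITGAV, the alpha chain of vitronectin receptors (chromosome 2, 186590056 to 186680901), had 76.7 TPM in S polysomes and 164 TPM in S input, against 64.8 and 44.9 TPM in P, a difference of -1.58. ITGA5, the fibronectin receptor alpha chain, had 41.0 TPM in S polysomes and 68.5 TPM in S input, against 44.8 and 26.9 TPM in P, a difference of -1.41. For both, polysome levels were within 2-fold of each other while input was higher in S. ITGA4 was at -0.94, ITGB1 at -0.25 and CDH19 at 0.15, the only member above the median gene. The median ratio of the list was -0.17 in S and 0.36 in P.

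Of 123 SLC transporters, a list added after values were seen, 89 were below the median gene (median -0.30), 5 (4.07%) at least 2-fold lower and none higher, where 2.0% of all genes were lower. Of 15 amino acid transporters, 11 were below the median gene (median -0.39) and 2 at least 2-fold lower. SLC38A2, a glutamine carrier, had 18.5 TPM in S polysomes and 45.4 TPM in S input, against 61.2 and 65.1 TPM in P, a difference of -1.13. SLC7A5, the leucine carrier, was at -0.99, while its heavy chain SLC3A2 was at 0.70. Lysosomal genes had 31 of 43 below the median gene (median -0.25, 2 at least 2-fold lower). CD68, a lysosomal membrane protein, had 649 TPM in S polysomes and 420 TPM in S input, against 21.6 and 5.76 TPM in P, a difference of -1.08. It was far higher in S in both fractions, and by more in input. SELENON, an endoplasmic reticulum selenoprotein, was the lowest of 16 selenoproteins at -1.45, whose median was 0.03.

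Cell cycle genes were far lower in S input than in P input, and in bulk RNA fewer dividing cells and less RNA per cell cannot be told apart. G2/M genes had a median log2 difference of -4.01 between S and P input relative to the median gene, and their median polysome-to-input difference was 0.26, with 37 of 56 above the median gene, 9 (16.1%) at least 2-fold higher and 1 lower. CENPE, a kinetochore motor with a long coiled coil, had 5.39 TPM in S polysomes and 0.40 TPM in S input, against 9.61 and 25.3 TPM in P, a difference of 3.53 (2.03 with 5 TPM added). CENPF, another coiled-coil kinetochore protein, was at 2.53. G1/S genes had a median of -2.88 between the input libraries and of -0.06 for the polysome-to-input difference, with none of 43 past 2-fold in either direction. Among melanoma genes, SOX10 was at -0.78, MITF at -0.62, CCND1 at -0.69, MYC at 0.18 and ATF4 at -0.44. AXL, a receptor kinase of dedifferentiated melanoma, had 10.5 TPM in S polysomes and 2.81 TPM in S input, against 14.8 and 11.7 TPM in P, a difference of 1.31. Nestin (NES), an intermediate filament protein, was at 1.16. NGFR, a neural crest receptor, had 836 TPM in S polysomes and 757 TPM in S input, against 0.21 and 0.42 TPM in P, so its ratio in P rests on levels under 1 TPM. As reference points, GAPDH was at 0.36, VIM at 0.35 and ACTB at -0.32.

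At the lowest end, several genes share reads with copies or neighbours. BOLA2, an iron-sulfur cluster chaperone with near-identical copies, had 69.4 TPM in S polysomes and 83.1 TPM in S input, against 40.9 and 1.81 TPM in P, a difference of -4.13 that rests on the P input value. Its readthrough BOLA2-SMG1P6 (-1.60) and the cancer-testis gene GAGE12G (-1.58) are uncertain for the same reason. PRORP, the protein-only mitochondrial RNase P (-2.04), MRNIP, a DNA repair factor (-2.0), and NEO1, a guidance receptor (-1.57), were also among the 12 lowest, each with a P input value below 10 TPM. RBM14, a paraspeckle protein, had 7.98 TPM in S polysomes and 19.6 TPM in S input, against 34.2 and 21.3 TPM in P, a difference of -1.83. NCAPD3, a condensin subunit, was at -1.54, with 15.3 TPM in S polysomes and 34.4 TPM in S input, against 58.8 and 42.6 TPM in P. In RBM14 and NCAPD3 the input libraries were within 2-fold and the polysome libraries set the difference.

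Sequence composition was then read over all 8426 measured nuclear coding genes with a GENCODE 29 coding sequence of the same symbol (96.1% of the tested symbols matched a gene there). Purine content was chosen as a feature after the highest genes were seen. Over 5 equal groups of rising purine content, the median difference was -0.22, -0.13, -0.06, 0.06 and 0.31. Genes at least 2-fold higher numbered 18, 21, 29, 61 and 245 in these groups, or 14.5% of the richest group and 1.07% of the poorest. Genes at least 2-fold lower numbered 61, 43, 27, 25 and 11. Both counts thus ran in opposite directions along purine content. The median purine content was 57.7% in the 374 higher coding genes and 51.0% in the 167 lower ones, against 52.8% in all coding genes. Across genes, which are not independent replicates, purine content and the difference had a Spearman correlation of 0.36 and a Pearson correlation of 0.38. With the ratio itself the Spearman correlation was 0.28 in S and 0.05 in P, so the gradient of the ratio lay in S. The purine-richest group had a median ratio of 0.42 in S and 0.00 in P, and the poorest -0.29 in S and -0.08 in P. The same groups differed in input, with the richest at -0.23 and the poorest at 0.32 for S against P. They were nearly equal in polysomes (0.11 and 0.10). Across genes, purine content had a Spearman correlation of -0.19 with S against P in input and of 0.004 in polysomes.

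**Figure D3:**
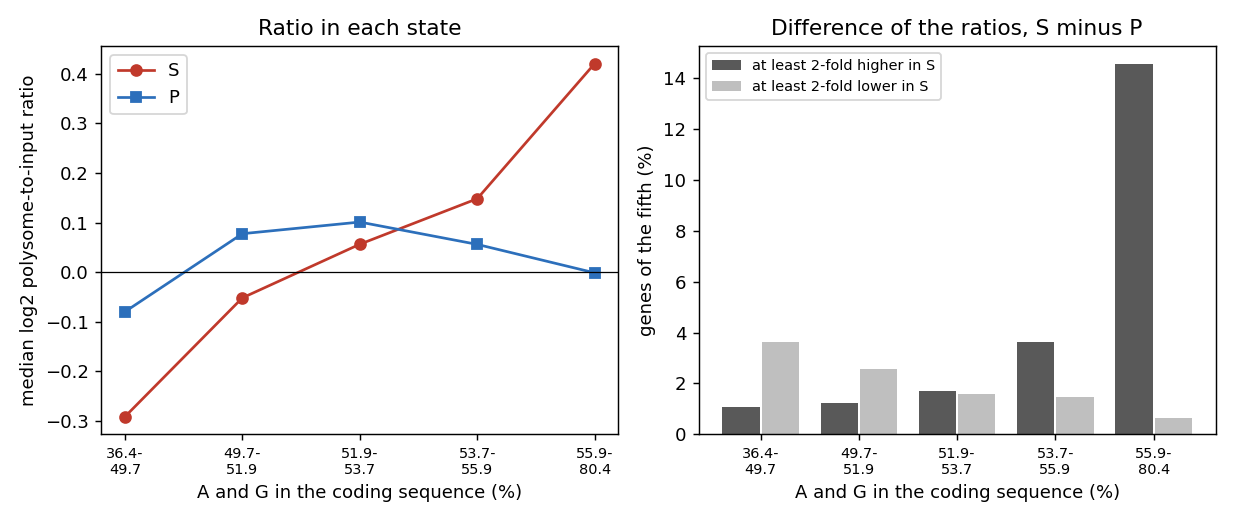
Left, median log2 polysome-to-input ratio in S and P over 5 equal groups of coding genes by percent A and G of the coding sequence; right, the percent of genes in each group at least 2-fold higher or lower in S. The S line climbs from -0.29 in the poorest group to 0.42 in the richest while the P line stays between -0.08 and 0.10, and 14.5% of the richest group is at least 2-fold higher.

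The length of the 3-prime UTR ran the other way. Over 5 equal groups from short to long, the median difference was 0.27, 0.11, -0.07, -0.16 and -0.24, with a Spearman correlation of -0.33. The shortest group held 107 genes at least 2-fold higher and 16 lower, and the longest 61 higher and 66 lower. Median 3-prime UTR length was 750.5 bases in higher genes and 2334 bases in lower genes, against 1032 bases in all. Lengths are those of 1 annotated transcript per gene, which need not be the form present in A375. The transcript taken for MYC, for example, has a 3-prime UTR of 3 bases. Within each of 4 equal groups of purine content, genes with the shortest 3-prime UTRs stood above those with the longest. Genes in the top group of purine content and the shortest of 4 groups of 3-prime UTR length had a median of 0.48 (520 genes, 80 higher, 6 lower). Those in the lowest group of purine content and the longest UTR group had -0.46 (455 genes, 1 higher, 39 lower).

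**Figure D4:**
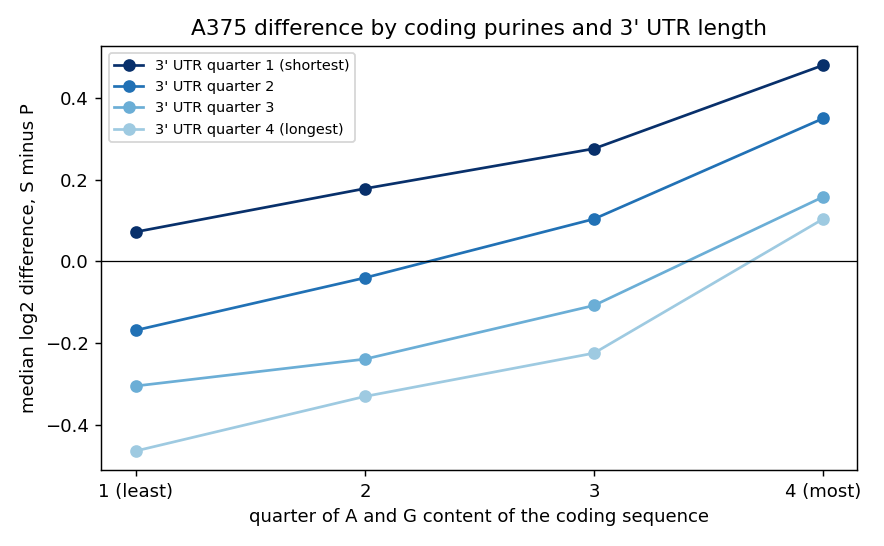
Median difference of the log2 polysome-to-input ratio, S minus P, over 4 equal groups of purine content of the coding sequence (x axis), with a line for each of 4 groups of 3-prime UTR length. All 4 lines climb to the right and keep their order, from -0.46 for the longest UTRs with the fewest purines to 0.48 for the shortest with the most.

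Coding length, which sets how many ribosomes an mRNA can hold, had almost no rank correlation with the difference (Spearman -0.02), while it ran with the ratio in both states (0.26 in S and 0.29 in P). It did mark the extremes: 9.20% of the longest of 5 equal groups was at least 2-fold higher, against 2.31% of the shortest. Genes both long and purine-rich held most of these, with 141 of 470 at least 2-fold higher in the top of 4 groups of both and a median of 0.59. Among long genes with the fewest purines, 3 of 418 were at least 2-fold higher and 19 lower (median -0.24). The length of the 5-prime UTR had a Spearman correlation of -0.02 with the difference. GC content had -0.13 and A content 0.23, both below purine content. The share of lysine and glutamate codons had 0.32, close to the 0.36 of purine content. Of the group richest in these codons, 14.1% was at least 2-fold higher. Which of these features the difference follows was not tested.

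The same comparison in Yumm1.7 used 4 other libraries, so it shares no control with A375. Its median gene differed by -0.60 before centring, against -0.03 in A375. There, 12% of 7634 genes were past 2-fold upward and 9.48% downward. Over 6102 genes with matching symbols, the differences of the 2 lines had a Pearson correlation of 0.26 and a Spearman correlation of 0.28 across genes. Shared among the matched genes past 2-fold upward were 75, or 26.6% of the 282 in A375 and 12.1% of the 619 in Yumm1.7, where 10.1% of all matched genes were past 2-fold upward in Yumm1.7. Shared among those past 2-fold downward were 14, or 12.3% of 114 in A375 and 2.35% of 596 in Yumm1.7, where 9.77% of all matched genes were past 2-fold downward in Yumm1.7. Another 29 were past 2-fold in opposite directions, 21 higher in A375 and lower in Yumm1.7 and 8 the other way round. These made up 7.45% of the 282 and 7.02% of the 114, below the shares of all matched genes. The A375-higher genes had a median of 0.34 in Yumm1.7, against -0.03 for all matched genes, and the A375-lower genes -0.13.

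Some groups had the same sign in both lines and others did not. Each median covers the members measured in that line, so the members are not all the same. Yumm1.7 had 12 mitochondrial mRNAs, 8 integrins and cadherins, 17 TOP mRNAs and 27 SR-related proteins, against 13, 12, 18 and 29 in A375. Mitochondrial mRNAs had a median of 2.98 in Yumm1.7 (1.15 in A375) and mitochondrial tRNAs 2.19 (2.68 in A375), FTH1 was at 1.09 (1.75 in A375), and integrins and cadherins were at -0.96 (-0.51 in A375). TOP mRNAs had a median of 0.93 in Yumm1.7 and -0.30 in A375, and EEF1A1 was at 0.60 and -1.77. Centrosomal coiled-coil proteins had a median of -0.56 over 10 members in Yumm1.7 and 1.5 over 16 in A375. Golgins were at -0.22 over 10 members in Yumm1.7 and 0.63 over 13 in A375. AKAP9 and TRIP11, high in A375, have no Yumm1.7 value. EIF3A was at -0.63 in Yumm1.7 and 2.69 in A375. SR-related splicing proteins were at 0.63 in Yumm1.7 and 0.51 in A375. Without centring, EEF1A1 and the SR-related proteins would stand at about 0 in Yumm1.7. Along purine content of the human gene the Yumm1.7 medians ran from -0.10 to 0.03 (Spearman 0.05), and along 3-prime UTR length from 0.44 in the shortest group to -0.19 in the longest (Spearman -0.28). Thus the 3-prime UTR gradient was present in both lines and the purine gradient in A375, with the difference between lines not tested.

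**Figure D5:**
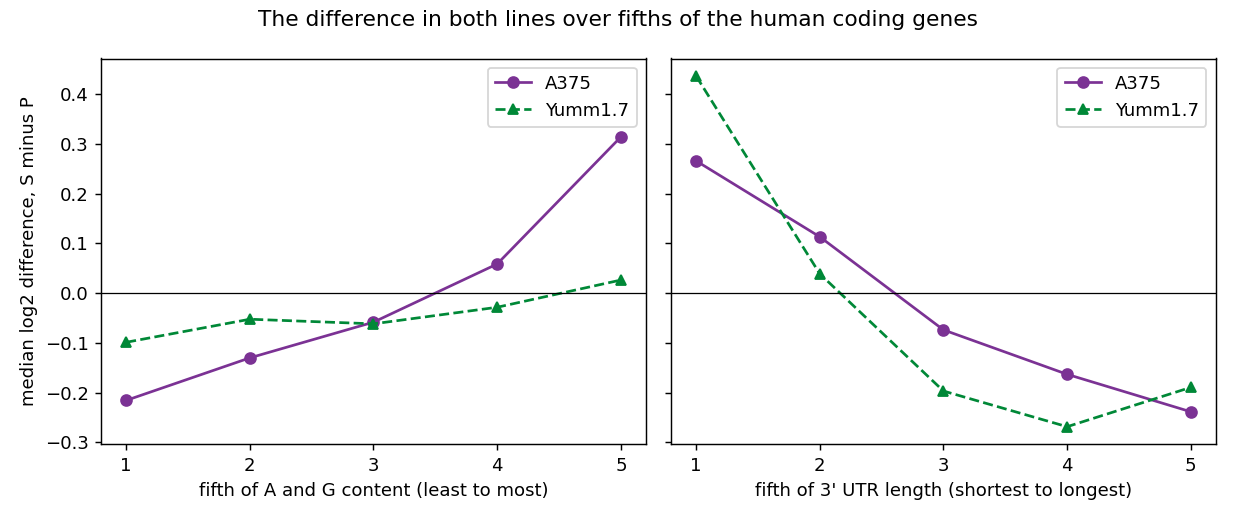
Median difference of the log2 polysome-to-input ratio, S minus P, in A375 (circles) and Yumm1.7 (triangles) over 5 equal groups of coding purine content (left) and 3-prime UTR length (right) of the human gene. On the left A375 climbs from -0.22 to 0.31 while Yumm1.7 stays between -0.10 and 0.03; on the right both lines slope down, with A375 between 0.27 and -0.24 and Yumm1.7 at 0.44 for the shortest and -0.19 for the longest.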

How the data were processed

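The deposited A375 and Yumm1.7 tables hold TPM per gene, made by the authors from reads of poly-T-selected RNA. Builds were GRCh38 (hg38) and GRCm38 (mm10), per the submitters' processing notes. Which aligner, quantifier, annotation and strand setting were used was not given in the sources used here. TPM keeps no read depth, so no counting error could be given.

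Values were compared as log2(TPM + 1), ratios and differences were centred on the median gene, and a difference of 2-fold (1 on the log2 scale) was counted. With 1 library per group no test was made. The members and the lists were chosen with earlier results of these data known, and 9 lists were added after values were seen. A member of the iron-responsive list is not reported here and was left out of its median. Genes named were taken from the 12 highest and 12 lowest whose mean over the 4 libraries reached 10 TPM, and from the 30 highest and lowest coding genes. Up to 4 members of a list and a set of single genes were also drawn on. Not every gene of these groups is named, and others were named after their values were seen. Coordinates of whole genes are from RefSeq (GRCh38.p14). Protein length was planned from a protein table, and the coding length of the longest principal transcript in GENCODE 29 was used instead. UTR lengths and base composition came from that same transcript. Lists of the Yumm1.7 values match symbols in capital letters. Python 3.11.15, pandas 2.3.3 and numpy 2.4.6 were used, and the steps were tested on simulated data.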

Additional observations from a re-analysis of the deposited data

Results flagged for a closer look

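Of 6102 matched genes, 29 were at least 2-fold from the median gene in opposite directions in the 2 lines. Of genes higher in A375, 7.45% were lower in Yumm1.7, where 9.77% of all matched genes were. Of genes lower in A375, 7.02% were higher in Yumm1.7, where 10.1% of all matched genes were. The count is thus no excess over these shares. PSEN2, DST and PYROXD1 are those among the genes named here by their rank or as single genes of interest. PSEN2, a presenilin of the gamma-secretase complex, had a difference of 3.04 in A375 and -1.19 in Yumm1.7. DST, a cytoskeletal linker, had 2.34 in A375 and -1.30 in Yumm1.7. PYROXD1, an oxidoreductase, had -1.40 in A375 and 1.16 in Yumm1.7. In Yumm1.7 it had 3.17 TPM in S polysomes and 1.02 TPM in S input. The median gene of Yumm1.7 differed by -0.60 before centring, and PYROXD1 is past 2-fold there only after centring. The difference between the lines was not tested, since each value rests on 1 library per group. The A375 S input value of PSEN2 was 0.79 TPM.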

How the results depend on the processing

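The count of genes at least 2-fold lower (183) was 277 with a pseudocount of 0.1, 64 with a pseudocount of 5, 314 with a mean of at least 1 TPM, 386 with no filter on low values and 106 with a mean of at least 20 TPM. The count at least 2-fold higher (484) was 742 with a mean of at least 1 TPM, 892 with no filter and 213 with a mean of at least 20 TPM, since fewer or more genes enter. The list of iron-responsive mRNAs (0.41) was at -0.42 with a mean of at least 1 TPM, -0.43 with no filter and 1.31 with a mean of at least 20 TPM, and small nucleolar and Cajal body RNAs (0.89) at 1.57 with a mean of at least 20 TPM. BCYRN1, a brain cytoplasmic RNA listed at 0 in S polysomes, had a difference of 1.02 and of -1.74 with a pseudocount of 0.1. Over all settings, 458 of 462 values for lists moved by less than 1.5-fold. For the 94 genes followed one by one, filters and centring shift all values alike by a small amount, so they could not show a move. With a pseudocount of 0.1, 83 of the 94 moved by less than 1.5-fold, and with a pseudocount of 5, 73 did. Of all 667 genes past 2-fold, BCYRN1 and SNHG25 changed sign with a pseudocount of 0.1. None did with a pseudocount of 5 or with libraries rescaled without mitochondrial genes. The filters and the centring could not change the sign of a gene past 2-fold. The gap between the purine-richest and poorest of 5 groups lay between 0.44 and 0.56, and that between the longest and shortest 3-prime UTR groups between -0.54 and -0.40. No paired analysis was possible because each group has 1 library.

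Each difference rests on 4 libraries with no replicate. A gene at a few TPM in 1 library can move past 2-fold through that library alone: 87 of the 484 higher genes and 46 of the 183 lower ones had a mean under 10 TPM over the 4 libraries, and 12 and 3 had a library at 0.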

Other observations

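Chromatin modifying enzymes had 4 of 51 members (7.84%) at least 2-fold higher in S and none lower (median 0.16). This share is near the 5.30% of all genes. The 4 were the helicase CHD1 (1.55), the acetyltransferase KAT6B (1.51), the helicase CHD2 (1.40) and KMT2E (1.35). CHD1 had 15.4 TPM in S polysomes and 5.45 TPM in S input, against 17.1 and 19.5 TPM in P. Among autophagy genes (23 measured, median 0.16), RB1CC1, a coiled-coil scaffold of the ULK complex, was at 1.36 and ATG9A, a lipid scramblase, at 1.06.

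Of 23 AP-1 and immediate early genes, 19 were below the median gene (median -0.11) and 1 (4.35%) was at least 2-fold lower. Of all genes, 2.0% were at least 2-fold lower and 5.30% higher. ZFP36L2, which binds AU-rich elements, had 5.51 TPM in S polysomes and 12.8 TPM in S input, against 46.1 and 39.4 TPM in P, a difference of -1.28. Of 20 MAPK output genes, 13 were below the median gene (median -0.34) and 1 (5%) was at least 2-fold lower. It was SPRED1, an inhibitor of the pathway, at -1.06. Of 14 stress-responsive mRNAs with upstream reading frames, 9 were below the median gene (median -0.22). At least 2-fold lower were 2 (14.3%), CEBPB at -1.08 and IFRD1 at -1.08. Processed pseudogenes, whose reads may belong to their parent genes, had 16 of 71 at least 2-fold higher and 4 lower (median 0.60).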
